A study of Ovis aries with 24 samples.

Results

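The SLC25 carriers were studied in the liver and the periventricular white matter (PVWM) of preterm lambs, as the rows of both gene tables whose symbol was SLC25A followed by a number. The rule found the same 45 symbols in each tissue, of 27716 rows per table. Enough counts for a test were present for 44 of the 45 in liver and for 42 in PVWM. SLC25A31, the germ-cell form of the ADP/ATP carrier, had 0 to 3 counts in every liver library and 0 to 6 in every PVWM library and was not tested in either tissue. SLC25A45 (0 to 3 counts) and SLC25A47 (0 to 7 counts) were not tested in PVWM.

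SLC25 proteins form the largest family of transporters in the inner mitochondrial membrane, and they decide which nucleotides, phosphate, carboxylic acids, amino acids, cofactors and metal ions pass between cytosol and matrix. ADP/ATP carriers export the ATP made by oxidative phosphorylation, while the phosphate carrier brings in the phosphate it needs. In liver, carriers of aspartate, glutamate and ornithine also join the matrix and cytosolic steps of gluconeogenesis and the urea cycle, and the carnitine/acylcarnitine carrier brings fatty acids in for oxidation.

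Each tissue had 3 groups of 4 lambs, and messenger RNA was sequenced from every sample. The budesonide lambs were mechanically ventilated and given 2.5 mL/kg of intratracheal surfactant (poractant alpha, a porcine lung surfactant) with 0.25 mg/kg of budesonide, a glucocorticoid. The surfactant lambs were ventilated and given the same surfactant without budesonide. The unventilated lambs were neither ventilated nor given surfactant. In each ventilated group 3 lambs were 126 days of gestation and 1 was 127 days (budesonide animal 054, surfactant animal 007), while the unventilated lambs were 127 days (animals 057 and 058) or 128 days (animals 059, 060 and 061). In each ventilated group the 3 lambs of 126 days were female and the 1 of 127 days was male. Of the unventilated lambs, animals 057 and 058 were male and 059 and 060 female, the last by its PVWM label, and the sex of 061 was not given. Ventilation, surfactant and gestational age therefore cannot be told apart in comparisons with the unventilated lambs, and the make-up by sex differed too. Budesonide and surfactant lambs were matched in age and sex. The 24 libraries came from 13 lambs, of which 11 gave both tissues.

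Total counts per library were 16087620 to 23175121 in liver and 14929261 to 17532605 in PVWM. All 8 hepatocyte markers were present in every liver library, with summed levels of 181278 to 244379 CPM (counts-per-million) in budesonide livers, 227311 to 266996 CPM in surfactant livers and 201572 to 261957 CPM in unventilated livers. Summed neutrophil and myeloid markers were 222 to 291 CPM in budesonide livers, 170 to 445 CPM in surfactant livers and 70.9 to 115 CPM in unventilated livers, and endothelial markers were 196 to 236, 332 to 438 and 227 to 288 CPM in the same order of groups. In PVWM, astrocyte, oligodendrocyte and neuron markers were present in all libraries. Summed oligodendrocyte markers of surfactant animal 051 were 13071 CPM against 760.8 to 2860 CPM in the other 11. The part of these markers in the results that follow was not tested. In bulk tissue, a change in the number of cells that express a gene and a change in its RNA per cell cannot be told apart.

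Between budesonide and surfactant livers, the largest rises among the carriers were those of the ADP/ATP carrier SLC25A4 (6.83-fold) and of SLC25A30 (4.92-fold). Of the 44 tested, 6 were higher and 1 was lower in budesonide than in surfactant livers (edgeR quasi-likelihood test, p adjusted over all genes by the Benjamini-Hochberg method and called when under 0.05). That is 15.9% of the carriers tested, a share near the 11.9% of all 16824 genes tested, with 4.01% higher and 7.85% lower. The count was 2 without budesonide animal 031 or with only these 2 groups in the fit, 4 without budesonide animal 048 or 050 or surfactant animal 049, and 11 without surfactant animal 051. The CPM ranges of the 2 groups did not overlap for 7 carriers, against 14.4% of all genes. The median log2 change was 0.17 for the carriers and -0.01 for all genes. In PVWM, 0 of 42 carriers were called in the same comparison, where 0.978% of all 18616 genes were (0.591% higher, 0.387% lower), 4 had an unadjusted p under 0.05 and DESeq2 also called 0.

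**Figure D1:**
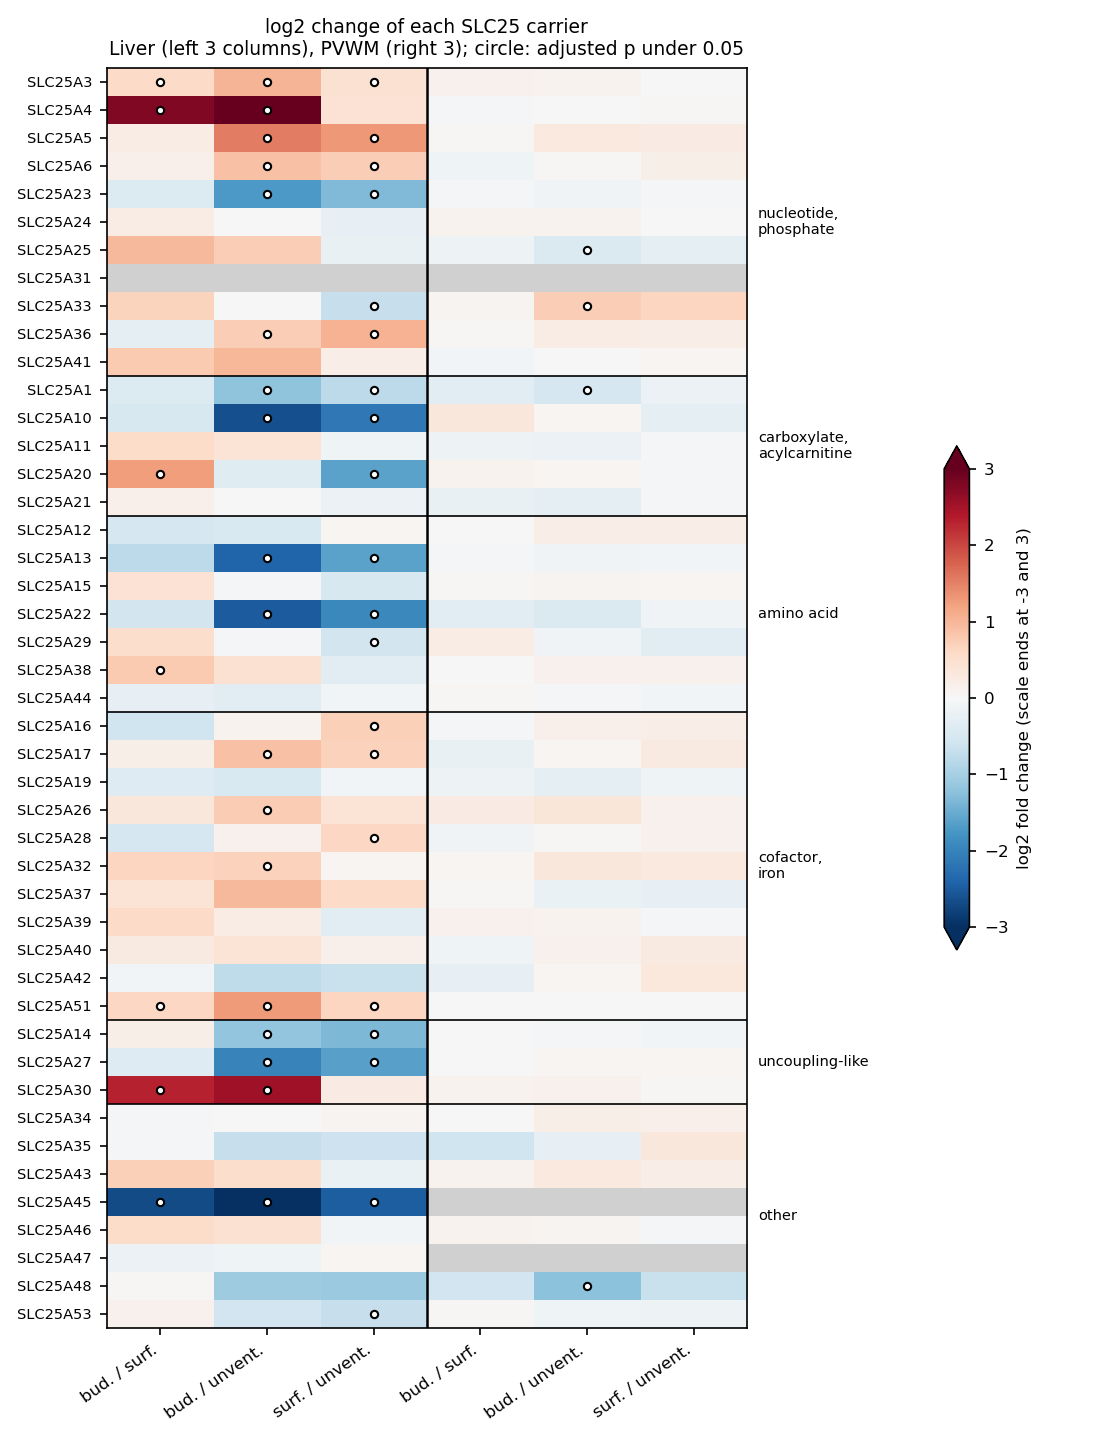
log2 change (colour) of each SLC25 carrier (rows) in the 3 comparisons of liver (left columns) and of PVWM (right columns), with a circle where the adjusted p was under 0.05. In budesonide against surfactant livers 7 carriers carry a circle, and in PVWM none of the 42 tested does.

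SLC25A4, the ADP/ATP carrier of heart and muscle also called ANT1, had 253, 187, 163 and 143 CPM in the livers of budesonide animals 031, 048, 050 and 054. It had 23.0, 20.2, 27.7 and 38.2 CPM in surfactant livers (animals 007, 032, 049 and 051) and 19.4, 19.8, 22.6 and 18.8 CPM in unventilated livers (animals 057, 058, 059 and 060). Every budesonide liver lay far above every other liver, and the other groups overlapped. The rise over surfactant livers was 6.83-fold (log2 2.77 ± 0.23 SE, edgeR adjusted p = 0.00011), and that over unventilated livers 9.25-fold (log2 3.21 ± 0.23, adjusted p = 2.6e-06). Between surfactant and unventilated livers the log2 difference of 0.44 ± 0.22 was not called (adjusted p = 0.12). In PVWM the same gene had 190, 194, 231 and 212 CPM in budesonide lambs and 215, 204, 206 and 222 CPM in surfactant lambs, with 216, 208, 197 and 206 CPM in unventilated lambs. All PVWM groups overlapped, and the log2 difference between budesonide and surfactant lambs was -0.04 ± 0.07. The liver change exceeded the PVWM change by 2.81 ± 0.24 on the log2 scale (edgeR, test of the difference, adjusted p = 6.3e-07, and 0.00044 with the animal as a block).

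The other ADP/ATP carriers did not follow SLC25A4 in the budesonide comparison. SLC25A5 (ANT2, the form of dividing cells) had 36.7, 33.0, 30.0 and 53.7 CPM in budesonide livers, 17.3, 25.1, 34.8 and 53.9 CPM in surfactant livers and 13.3, 18.2, 11.0 and 10.5 CPM in unventilated livers. SLC25A6 (ANT3) had 169, 169, 146 and 217 CPM in budesonide livers, 138, 154, 177 and 164 CPM in surfactant livers and 105, 102, 83.1 and 92.1 CPM in unventilated livers. For both genes the budesonide and surfactant ranges overlapped, with log2 differences of 0.22 ± 0.32 and 0.14 ± 0.15 that were not called (edgeR adjusted p = 0.66 and 0.55). Both were instead higher in surfactant than in unventilated livers, by 1.31 ± 0.32 for SLC25A5 (adjusted p = 0.0069) and by 0.73 ± 0.15 for SLC25A6 (adjusted p = 0.0025). Both rises over unventilated lambs were larger in liver than in PVWM by 1.12 and 0.63 (adjusted p = 0.025 each). The difference between tissues was not called for SLC25A5 without surfactant liver 051 (adjusted p = 0.081), unventilated liver 059 (0.052) or unventilated liver 060 (0.055). For SLC25A6 it was not called without surfactant liver 049 (0.054), unventilated liver 059 (0.057), surfactant PVWM 032 (0.055) or unventilated PVWM 057 (0.051), nor with the animal as a block (0.095).

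The make-up of the ADP/ATP carrier counts also differed between the groups of livers. SLC25A4 made up 55.2%, 48.2%, 48.1% and 34.5% of the counts of SLC25A4, SLC25A5 and SLC25A6 in budesonide livers. It made up 12.9%, 10.1%, 11.6% and 14.9% in surfactant livers and 14.1%, 14.2%, 19.4% and 15.5% in unventilated livers. The lowest budesonide liver was thus above the highest of the other 8. In PVWM the share averaged 38.6% ± 2.0 in budesonide lambs, 38.1% ± 3.3 in surfactant lambs and 40.5% ± 0.65 in unventilated lambs (SD, n = 4 each). The summed level of the 3 genes was 400 ± 49 CPM in budesonide livers, 219 ± 36 CPM in surfactant livers and 129 ± 12 CPM in unventilated livers. These are shares of counts, not of molecules, since counts also grow with transcript length. The 3 genes resemble each other in sequence, and how the authors' counting divided reads between them or pseudogene copies was not tested.

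**Figure D2:**
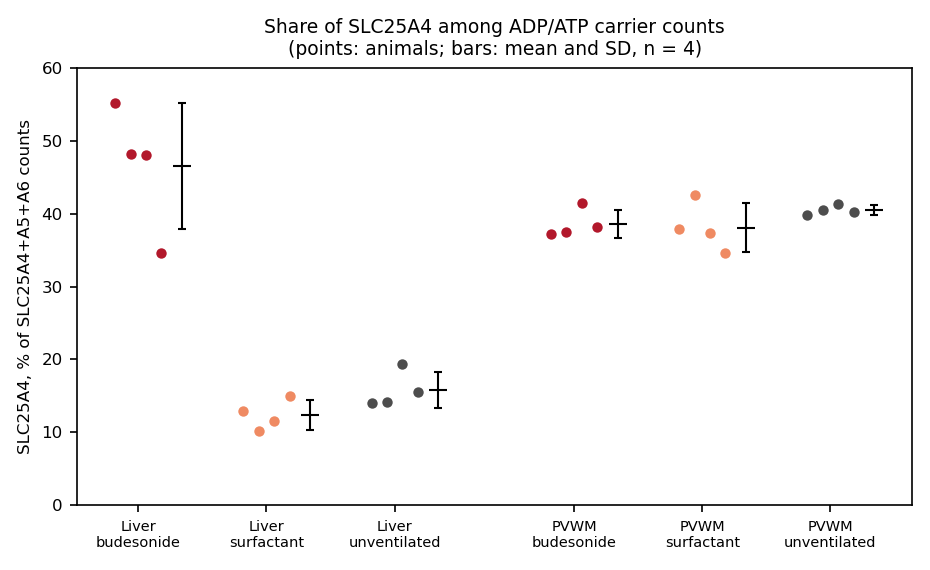
Counts of SLC25A4 as a percentage of the summed counts of SLC25A4, SLC25A5 and SLC25A6 (y axis) for each animal, by tissue and group, with the mean and SD of 4 animals. Budesonide livers lie at 34.5% to 55.2%, and the other livers at 10.1% to 19.4%.

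The phosphate carrier SLC25A3 had 163, 130, 148 and 153 CPM in budesonide livers, 90.0, 94.4, 87.0 and 131 CPM in surfactant livers and 74.4, 71.5, 72.9 and 75.1 CPM in unventilated livers. The 3 groups formed a graded order in which surfactant animal 051 just reached above the lowest budesonide liver. SLC25A3 rose in budesonide over surfactant livers (log2 0.56 ± 0.15, edgeR adjusted p = 0.029) and in surfactant over unventilated livers (0.45 ± 0.15, adjusted p = 0.027). The first call was lost without budesonide animal 031 (adjusted p = 0.084), 050 (0.057) or 054 (0.051), or surfactant animal 032 (0.071) or 049 (0.079). The second was lost without surfactant animal 051 (0.093) or without any of unventilated animals 057, 058, 059 and 060 (0.056 to 0.061). In PVWM its level was 212 ± 26 CPM in budesonide lambs, 195 ± 20 CPM in surfactant lambs and 197 ± 9.0 CPM in unventilated lambs (SD, n = 4 each), with no call.

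Some carriers exchange ATP-magnesium for phosphate and so set the size of the matrix nucleotide pool. SLC25A23, a calcium-regulated one, had 4.37, 3.5, 5.0 and 3.02 CPM in budesonide livers, 7.67, 6.36, 3.89 and 3.09 CPM in surfactant livers and 11.9, 11.2, 17.1 and 12.3 CPM in unventilated livers. Both ventilated groups lay below all unventilated livers, and the surfactant livers fell by 1.32 ± 0.28 on the log2 scale relative to them (edgeR adjusted p = 0.0031). SLC25A25, another calcium-regulated one, had 229, 83.1, 125 and 58.6 CPM in budesonide livers, 96.4, 62.1, 48.6 and 45.5 CPM in surfactant livers and 80.4, 74.5, 67.2 and 73.7 CPM in unventilated livers. Its spread within the budesonide group was wide, and the log2 difference of 0.97 ± 0.36 from surfactant livers was not called (adjusted p = 0.094), although it was without budesonide animal 054 (0.037) or surfactant animal 007 (0.039). In PVWM, SLC25A25 had 38.8, 36.8, 42.1 and 35.7 CPM in budesonide lambs, 44.3, 40.1, 43.6 and 41.6 CPM in surfactant lambs and 55.5, 51.0, 54.1 and 47.2 CPM in unventilated lambs. There, all ventilated lambs lay below all unventilated lambs, and the budesonide lambs fell by 0.44 ± 0.08 on the log2 scale (adjusted p = 0.0042). The surfactant lambs' difference of -0.29 ± 0.08 was not called by edgeR (adjusted p = 0.087).

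The pyrimidine nucleotide carriers SLC25A36 and SLC25A33 moved in opposite directions in surfactant against unventilated livers. SLC25A36 had 49.5, 65.6, 59.8 and 54.3 CPM in budesonide livers, 68.4, 57.3, 109 and 47.9 CPM in surfactant livers and 35.4, 30.0, 31.3 and 41.3 CPM in unventilated livers, so that all 8 ventilated livers were above all 4 unventilated ones. It rose by 1.03 ± 0.23 in surfactant over unventilated livers (edgeR adjusted p = 0.0035). SLC25A33 had 14.9, 9.86, 15.5 and 8.62 CPM in budesonide livers, 9.78, 5.10, 6.55 and 9.11 CPM in surfactant livers and 13.0, 11.0, 14 and 11.1 CPM in unventilated livers, a fall of 0.68 ± 0.25 in surfactant against unventilated livers (adjusted p = 0.041). Budesonide livers overlapped the unventilated ones and were not called against them (adjusted p = 0.99). The call in surfactant livers was lost without any of 6 libraries, namely surfactant animals 032 and 049 and all 4 unventilated animals (adjusted p = 0.054 to 0.093). In PVWM the direction of SLC25A33 was the other one, with 28.9, 31.6, 43.9 and 37.9 CPM in budesonide lambs, 29.5, 27.6, 36.0 and 40.6 CPM in surfactant lambs and 21.2, 25.7, 17 and 21.1 CPM in unventilated lambs. All 8 ventilated PVWM samples exceeded all 4 unventilated ones. The rise was called for budesonide lambs (0.74 ± 0.17, adjusted p = 0.015) and not for surfactant lambs (0.65 ± 0.17, adjusted p = 0.066). The change in surfactant against unventilated lambs differed between the tissues by -1.26 ± 0.30 (liver minus PVWM, adjusted p = 0.0035).

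Among the carboxylate and acylcarnitine carriers, 1 of 5 was called in budesonide against surfactant livers, where 11.9% of all genes were, and 3 of 5 in surfactant against unventilated livers, where 41.1% were. SLC25A20, the carnitine/acylcarnitine carrier of fatty acid oxidation, had 10.9, 9.34, 4.65 and 8.10 CPM in budesonide livers, 5.34, 3.12, 2.33 and 3.09 CPM in surfactant livers and 12.1, 9.77, 10.7 and 9.6 CPM in unventilated livers. Surfactant livers were thus the low group, below every unventilated liver, and 3 of the 4 budesonide livers lay above all of them. It was 2.38-fold higher in budesonide than in surfactant livers (log2 1.25 ± 0.29, edgeR adjusted p = 0.017), a call lost without budesonide animal 031 (adjusted p = 0.056). It fell by 1.60 ± 0.29 in surfactant against unventilated livers (adjusted p = 0.0011), while budesonide and unventilated livers differed by -0.35 ± 0.28 (adjusted p = 0.32). These comparisons share the surfactant or the unventilated livers. In PVWM the level was 11.6 ± 0.48, 10.7 ± 1.5 and 11.1 ± 1.3 CPM in budesonide, surfactant and unventilated lambs (SD, n = 4 each). The budesonide change was larger in liver than in PVWM by 1.15 ± 0.31 (adjusted p = 0.044), which was lost with the animal as a block (0.061) and without any of 11 of the 16 libraries of these groups (0.066 to 0.10).

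SLC25A10, the dicarboxylate carrier, had 2.97, 1.72, 2.91 and 1.99 CPM in budesonide livers, 5.67, 3.18, 3.44 and 1.13 CPM in surfactant livers and 17.5, 11.7, 18.6 and 12.1 CPM in unventilated livers. SLC25A1, the citrate carrier that supplies carbon for fatty acid synthesis, had 3.73, 2.35, 2.68 and 2.96 CPM in budesonide livers, 4.89, 3.42, 3.89 and 3.45 CPM in surfactant livers and 6.46, 5.30, 7.76 and 7.37 CPM in unventilated livers. For both, every ventilated liver lay below every unventilated liver. SLC25A10 fell by 2.16 ± 0.38 and SLC25A1 by 0.78 ± 0.21 on the log2 scale in surfactant against unventilated livers (edgeR adjusted p = 0.00098 and 0.012). Budesonide and surfactant livers differed by -0.48 ± 0.39 and -0.42 ± 0.22 (adjusted p = 0.43 and 0.22). The oxoglutarate/malate carrier SLC25A11 had 24.9 ± 9.7 CPM in budesonide livers, 17.1 ± 1.2 CPM in surfactant livers and 18.9 ± 2.1 CPM in unventilated livers and was not called. In PVWM, SLC25A1 fell in budesonide against unventilated lambs by 0.50 ± 0.14 (adjusted p = 0.048), a call lost without any of budesonide animals 031, 048 and 050 or unventilated animals 057, 058 and 061 (0.082 to 0.13).

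Of the 7 amino acid carriers, 1 was higher in budesonide than in surfactant livers and 3 were lower in surfactant than in unventilated livers, shares close to the 11.9% and 41.1% of all genes called. SLC25A13 (citrin), the aspartate/glutamate carrier of liver, had 37.4, 17.8, 29.2 and 19.8 CPM in budesonide livers, 64.0, 40.4, 49.0 and 26.9 CPM in surfactant livers and 136, 116, 177 and 124 CPM in unventilated livers. SLC25A22, a glutamate carrier, had 4.77, 4.13, 5.53 and 4.12 CPM in budesonide livers, 9.28, 6.24, 8.05 and 3.65 CPM in surfactant livers and 24.6, 25.4, 33.0 and 21.8 CPM in unventilated livers. No ventilated liver reached an unventilated one for either gene. SLC25A22 fell by 1.94 ± 0.26 and SLC25A13 by 1.62 ± 0.29 in surfactant against unventilated livers (edgeR adjusted p = 0.00016 and 0.0010). In budesonide against surfactant livers the log2 difference of -0.79 ± 0.28 for SLC25A13 was not called (adjusted p = 0.086), although it was without surfactant animal 051 (0.023). In PVWM, SLC25A13 averaged 11.7 ± 1.3, 12 ± 2.4 and 12.6 ± 1.3 CPM in budesonide, surfactant and unventilated lambs (SD, n = 4 each). The surfactant against unventilated change in liver minus that in PVWM was -1.77 ± 0.29 for SLC25A22 (adjusted p = 0.00015) and -1.47 ± 0.33 for SLC25A13 (adjusted p = 0.0022).

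SLC25A38, a glycine carrier that feeds haem synthesis, had 16.4, 16.3, 16.1 and 16.9 CPM in budesonide livers, a narrow band. It had 13.0, 7.98, 9.55 and 7.62 CPM in surfactant livers and 11.1, 14.5, 9.53 and 12.8 CPM in unventilated livers, all below the budesonide band. The rise over surfactant livers was 1.72-fold (log2 0.78 ± 0.19, edgeR adjusted p = 0.021). It was lost when budesonide animal 031 (adjusted p = 0.054), budesonide animal 048 (0.052), surfactant animal 032 (0.068) or surfactant animal 049 (0.056) was left out, and the difference of 0.45 ± 0.19 from unventilated livers was not called (0.066). SLC25A29, a carrier of basic amino acids, had 22.9 ± 2.1 CPM in budesonide livers, 15.8 ± 4.0 CPM in surfactant livers and 23.3 ± 1.1 CPM in unventilated livers (SD, n = 4 each). It fell in surfactant against unventilated livers (log2 -0.55 ± 0.18, adjusted p = 0.024, and 0.061 without unventilated animal 057) and was not called in budesonide against surfactant livers (0.53 ± 0.18, adjusted p = 0.067). The budesonide and surfactant ranges of SLC25A29 did not overlap, and its rise was called without surfactant animal 007 (0.033) or 051 (0.034). The ornithine carrier SLC25A15, which serves the urea cycle, had 112, 110, 188 and 58.9 CPM in budesonide livers, 94.6, 74.4, 119 and 59.3 CPM in surfactant livers and 127, 118, 146 and 94.8 CPM in unventilated livers. All 3 groups overlapped and no comparison was called. SLC25A12 (aralar), the other aspartate/glutamate carrier, had 9.46 ± 5.3, 13.5 ± 4.5 and 13.0 ± 2.3 CPM in budesonide, surfactant and unventilated livers and was not called either. Without budesonide liver 054, SLC25A12 was called lower in budesonide than in surfactant livers (log2 -0.98, edgeR adjusted p = 0.035) and than in unventilated livers (-0.93, adjusted p = 0.013). The budesonide change in liver minus that in PVWM was then also called (-0.97, adjusted p = 0.034).

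**Figure D3:**
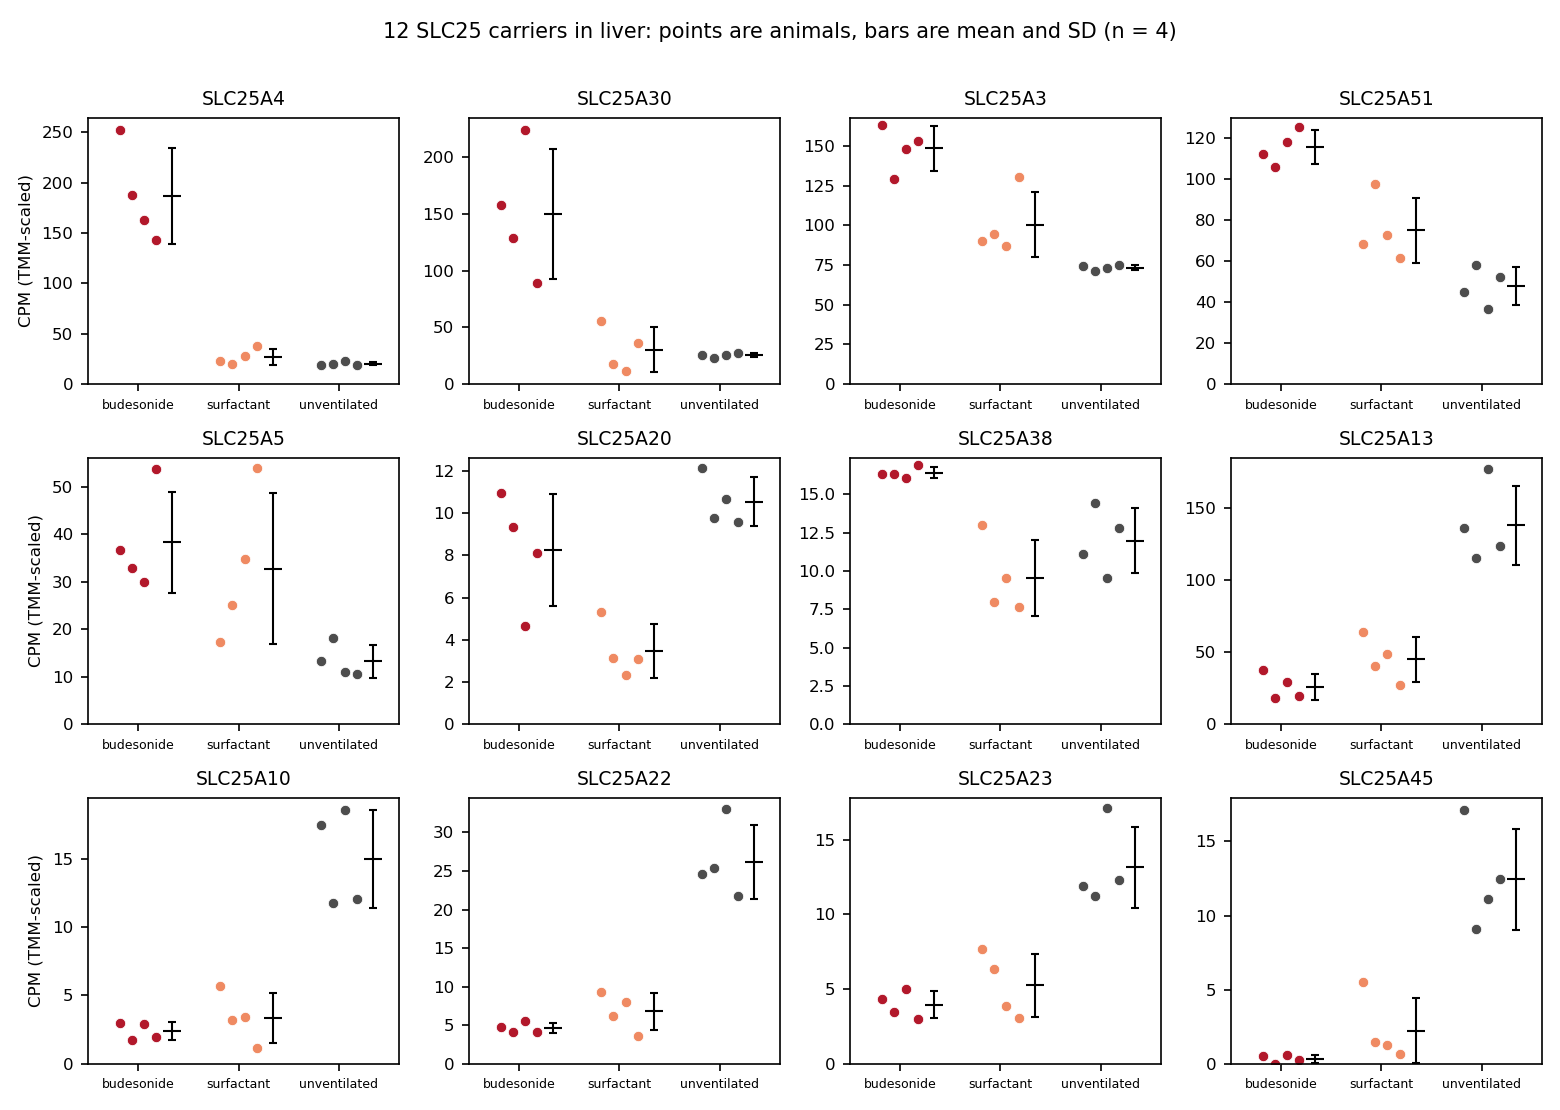
Level in CPM (y axis, each panel with its own linear scale from 0) of 12 SLC25 carriers in the livers of budesonide, surfactant and unventilated lambs, one point per animal with the mean and SD of 4. Every budesonide liver lies above the other 8 for SLC25A4, SLC25A30, SLC25A38 and SLC25A51, whereas SLC25A13 is high in unventilated livers, at 116 to 177 CPM.

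Of the 11 carriers of cofactors and iron, 1 was higher in budesonide than in surfactant livers and 4 were higher in surfactant than in unventilated livers, neither share above the 11.9% and 41.1% of all genes called. SLC25A51, which carries NAD+ into the matrix, had 112, 106, 118 and 126 CPM in budesonide livers, 68.3, 97.8, 72.7 and 61.5 CPM in surfactant livers and 45.0, 58.0, 36.7 and 52.1 CPM in unventilated livers. The 3 groups did not overlap and were ordered from budesonide to unventilated livers. SLC25A51 rose by 0.62 ± 0.18 in budesonide over surfactant livers (edgeR adjusted p = 0.038) and by 0.65 ± 0.18 in surfactant over unventilated livers (adjusted p = 0.011). The first call was lost without any library of these 2 groups except surfactant animal 032 (0.057 to 0.11), and the second without surfactant animal 032 (0.063). In surfactant against unventilated livers, SLC25A17, a peroxisomal carrier of coenzyme A, FAD and NAD+, rose by 0.69 ± 0.20 (adjusted p = 0.013, and 0.0504 without surfactant animal 049). The mitochondrial iron importer SLC25A28 (mitoferrin-2) rose by 0.63 ± 0.19 (adjusted p = 0.021), a call lost without surfactant animal 032 or 049 or unventilated animal 058 or 060 (0.059 to 0.074). SLC25A16 rose by 0.70 ± 0.26 (adjusted p = 0.045), and lost its call without any library of these groups except surfactant animals 007 and 032 (0.064 to 0.14).

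SLC25A37 (mitoferrin-1), the iron importer of red cell precursors, had 70.3, 118, 66.9 and 140 CPM in budesonide livers, 27.1, 116, 92.7 and 61.5 CPM in surfactant livers and 43.2, 86.5, 14.8 and 56.0 CPM in unventilated livers. The groups overlapped widely, and the log2 differences of 0.41 ± 0.50 in budesonide against surfactant livers and 0.57 ± 0.50 in surfactant against unventilated livers were not called (edgeR adjusted p = 0.61 and 0.38). The summed level of the 10 erythroid markers in the table was 1626, 2862, 1382 and 3365 CPM in budesonide livers, 863, 1773, 1417 and 1131 CPM in surfactant livers and 1348, 2556, 431 and 1485 CPM in unventilated livers. Within each group the animals fell in the same order by SLC25A37 as by these markers, of which 0 of 10 were called in any liver comparison. In PVWM, SLC25A37 was at 2.72 to 6.87 CPM in all 12 samples.

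SLC25A30, SLC25A14 and SLC25A27 resemble the uncoupling proteins, and they did not move together. SLC25A30, also known as kidney mitochondrial carrier protein 1, had 158, 129, 224 and 88.7 CPM in budesonide livers, 55.9, 17.9, 11.5 and 36.4 CPM in surfactant livers and 25.2, 23.2, 26.0 and 27.6 CPM in unventilated livers. Every budesonide liver was above every other liver, and the surfactant livers scattered on both sides of the unventilated ones. It rose 4.92-fold over surfactant livers (log2 2.30 ± 0.42, edgeR adjusted p = 0.0066) and 5.87-fold over unventilated livers (2.55 ± 0.43, adjusted p = 0.00045), and surfactant and unventilated livers differed by 0.25 ± 0.41 (adjusted p = 0.65). In PVWM it had 21.5, 19.1, 24.8 and 24.1 CPM in budesonide lambs, 19.0, 20.5, 22.6 and 21.8 CPM in surfactant lambs and 17.3, 23.2, 22.2 and 19.5 CPM in unventilated lambs, where all groups overlapped. The budesonide change was larger in liver by 2.22 ± 0.44 (adjusted p = 0.0072, and 0.022 with the animal as a block).

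SLC25A27 (UCP4) had 1.69, 1.32, 1.75 and 1.03 CPM in budesonide livers, 3.17, 2.22, 1.33 and 0.823 CPM in surfactant livers and 6.12, 4.11, 7.06 and 6.21 CPM in unventilated livers. SLC25A14 (UCP5) had 1.11, 0.803, 1.16 and 0.965 CPM in budesonide livers, 1.72, 0.480, 0.50 and 0.875 CPM in surfactant livers and 1.98, 1.64, 2.88 and 2.72 CPM in unventilated livers. For SLC25A27 all ventilated livers lay below all unventilated ones, and for SLC25A14 only surfactant animal 007 reached the unventilated range. In surfactant against unventilated livers SLC25A27 fell by 1.64 ± 0.36 and SLC25A14 by 1.35 ± 0.39 (edgeR adjusted p = 0.0036 and 0.015). In PVWM, where both stood far higher, SLC25A27 averaged 144 ± 8.9, 142 ± 25 and 137 ± 9.9 CPM in budesonide, surfactant and unventilated lambs and was not called.

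Of the 8 carriers with other or uncertain substrates, SLC25A45 was the only one called in budesonide against surfactant livers. It had 9, 0, 10 and 4 counts in budesonide livers (0.524, 0, 0.582 and 0.257 CPM) and 99, 25, 23 and 13 counts in surfactant livers (5.50, 1.5, 1.28 and 0.669 CPM), against 355, 200, 189 and 279 counts in unventilated livers (17.1, 9.13, 11.1 and 12.5 CPM). The 3 groups did not overlap. It fell by 2.69 ± 0.74 in budesonide against surfactant livers (edgeR adjusted p = 0.034) and by 2.47 ± 0.61 in surfactant against unventilated livers (adjusted p = 0.0069). The first call was lost without any budesonide library (0.0501 to 0.071) or without surfactant animal 007 (0.066), and with gestational age in the fit (0.0505). With so few counts in budesonide livers the size of the change is imprecise. SLC25A53 fell by 0.70 ± 0.25 in surfactant against unventilated livers (adjusted p = 0.039), a call lost without any library of these groups except surfactant animals 007 and 032 (0.056 to 0.084). SLC25A48, a choline carrier, was not called there (log2 -1.10 ± 0.47, adjusted p = 0.076), but in PVWM it had 4.94, 1.85, 3.75 and 4.46 CPM in budesonide lambs, 6.13, 5.14, 6.94 and 4.06 CPM in surfactant lambs and 7.61, 9.69, 10.6 and 7.43 CPM in unventilated lambs. There it fell by 1.23 ± 0.27 in budesonide against unventilated lambs (adjusted p = 0.013), with no overlap between ventilated and unventilated lambs. SLC25A47, a liver-enriched carrier, had 1.51 to 6.13 CPM in all 12 livers and was not called in any comparison there. SLC25A46, which acts at the outer membrane in mitochondrial fission, was not called in budesonide against surfactant livers (0.54 ± 0.20, adjusted p = 0.087), although it was without surfactant animal 007 (0.021).

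Counted over the family, 8 carriers were higher and 12 lower in surfactant than in unventilated livers, 45.5% of the 44 tested, against 41.1% of all genes (21.6% higher, 19.5% lower). The ranges did not overlap for 16 carriers, against 37.4% of all genes. By role, 4 of 10 nucleotide and phosphate carriers were higher and 2 lower, 3 of 5 carboxylate and acylcarnitine carriers were lower, 3 of 7 amino acid carriers were lower, 4 of 11 cofactor and iron carriers were higher, 2 of 3 uncoupling-like carriers were lower and 2 of 8 other carriers were lower. The share of the family called was close to that of all genes. With gestational age in the fit, 1 carrier kept its call, SLC25A22 (log2 -1.71, edgeR adjusted p = 0.018), and all 20 kept their direction. When only 127-day animals were set side by side, surfactant animal 007 deviated from the mean of unventilated animals 057 and 058 in the direction of the call for 20 of 20 carriers and lay beyond both for 17, values with no test. These carriers were chosen by calls that used the same animals, so the agreement was largely built in and is no test of age. The same count was not made over all genes.

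Against unventilated livers, budesonide livers had 10 higher and 8 lower carriers of 44, against 47.0% of all genes (23.3% higher, 23.7% lower), and 24 carriers without overlap, against 48.8%. These comparisons share the unventilated livers, so the values of the largest changes are given side by side. SLC25A10 differed from unventilated livers by -2.64 ± 0.39 in budesonide and -2.16 ± 0.38 in surfactant livers. SLC25A13 differed by -2.41 ± 0.30 in budesonide and -1.62 ± 0.29 in surfactant livers, and SLC25A22 by -2.50 ± 0.26 and -1.94 ± 0.26 in the same order. By role, 5 of 10 nucleotide and phosphate carriers were higher and 1 lower, 2 of 5 carboxylate and acylcarnitine carriers were lower, 2 of 7 amino acid carriers were lower, 4 of 11 cofactor and iron carriers were higher, 1 of 3 uncoupling-like carriers was higher and 2 lower, and 1 of 8 other carriers was lower. SLC25A4 and SLC25A30 were called in budesonide livers (3.21 and 2.55) and not in surfactant livers (0.44 and 0.25), and the direct tests between the ventilated groups stand with these genes. Among cofactor carriers, SLC25A26, which carries S-adenosylmethionine, was called in budesonide livers (0.76 ± 0.21, edgeR adjusted p = 0.011), as was SLC25A32, the folate carrier (0.70 ± 0.26, adjusted p = 0.044). The calls of 3 carriers were lost when a library was left out: SLC25A36 without budesonide animal 048 (0.052), SLC25A14 without budesonide animal 048 or 054 or unventilated animal 059 or 060 (0.0502 to 0.066), and SLC25A32 without any of budesonide animals 031, 048 and 050 or unventilated animals 058, 059 and 060 (0.055 to 0.12). With gestational age in the fit 9 of the 18 kept their call and 18 their direction, and SLC25A43, named after its values were seen and not called without age (log2 0.52, edgeR adjusted p = 0.36), was called (1.69, adjusted p = 0.031). Budesonide animal 054 lay beyond both 127-day unventilated livers for 18 of 18. The calls of these carriers used the same livers, so this count was largely built in and is no test of age. For SLC25A43 budesonide animal 054, the only 127-day lamb of its group, had 15.6 CPM against 4.19 to 4.82 CPM in the other budesonide livers. The part of this library in the call of SLC25A43 with age was not tested.

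Summed over all 45 carriers, family counts made up 1668 ± 125 CPM in budesonide livers, 1160 ± 43 CPM in surfactant livers and 1148 ± 29 CPM in unventilated livers (SD, n = 4 each). Without SLC25A4 and SLC25A30 the sums were 1332 ± 69, 1102 ± 60 and 1102 ± 29 CPM. The lowest budesonide liver, at 1238 CPM, still exceeded the highest surfactant liver, at 1178 CPM. Such sums are weighted towards the most abundant carriers. Of the 44 tested, 27 had a log2 change above 0 in budesonide against surfactant livers, with a median of 0.17, and 6 were called higher. In PVWM the sums over all carriers were 2482 ± 80, 2507 ± 45 and 2443 ± 63 CPM in budesonide, surfactant and unventilated lambs, and overlapped.

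Enzymes and transporters of the pathways that the carriers serve were also examined. Of 6 carnitine shuttle genes, 2 were higher and 1 was lower in budesonide than in surfactant livers (11.9% of all genes were called). CPT1A, the liver enzyme that makes the acylcarnitines carried by SLC25A20, averaged 399 ± 57 CPM in budesonide livers, 145 ± 50 CPM in surfactant livers and 71.0 ± 4.7 CPM in unventilated livers (SD, n = 4 each). It rose by 1.47 ± 0.22 in budesonide over surfactant livers (edgeR adjusted p = 0.0021). SLC22A5, the plasma membrane carnitine transporter, averaged 43.6 ± 18 CPM in budesonide livers, 7.15 ± 4.6 CPM in surfactant livers and 8.85 ± 2.7 CPM in unventilated livers and rose by 2.61 ± 0.42 (adjusted p = 0.0035). CPT1C, the brain form of CPT1, fell by 1.86 ± 0.30 (adjusted p = 0.0036). Each of the 3 kept its call when any library was left out.

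Against unventilated livers, surfactant livers had 2 of 6 carnitine shuttle genes higher and 2 lower, where 41.1% of all genes were called. CPT2, which releases the acyl group inside the matrix, averaged 52.4 ± 10 CPM in budesonide livers, 31.3 ± 12 CPM in surfactant livers and 97.2 ± 13 CPM in unventilated livers, and fell by 1.63 ± 0.24 in surfactant against unventilated livers (edgeR adjusted p = 0.00031). By group mean, SLC25A20 and CPT2 were thus both lowest in surfactant livers, while CPT1A was higher there than in unventilated livers (1.03, adjusted p = 0.0027). Unlike SLC25A20, CPT2 was not called in budesonide against surfactant livers. In PVWM, CPT2 and SLC22A5 were higher in both ventilated groups than in unventilated lambs. CPT2 rose there by 0.67 in budesonide and by 0.55 in surfactant lambs (adjusted p = 0.0027 and 0.028), the second lost without surfactant animal 049 or 051 or unventilated animal 057, 060 or 061 (0.060 to 0.095). SLC22A5 rose there by 0.88 in budesonide and by 0.88 in surfactant lambs (adjusted p = 0.00058 and 0.0024).

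**Figure D4:**
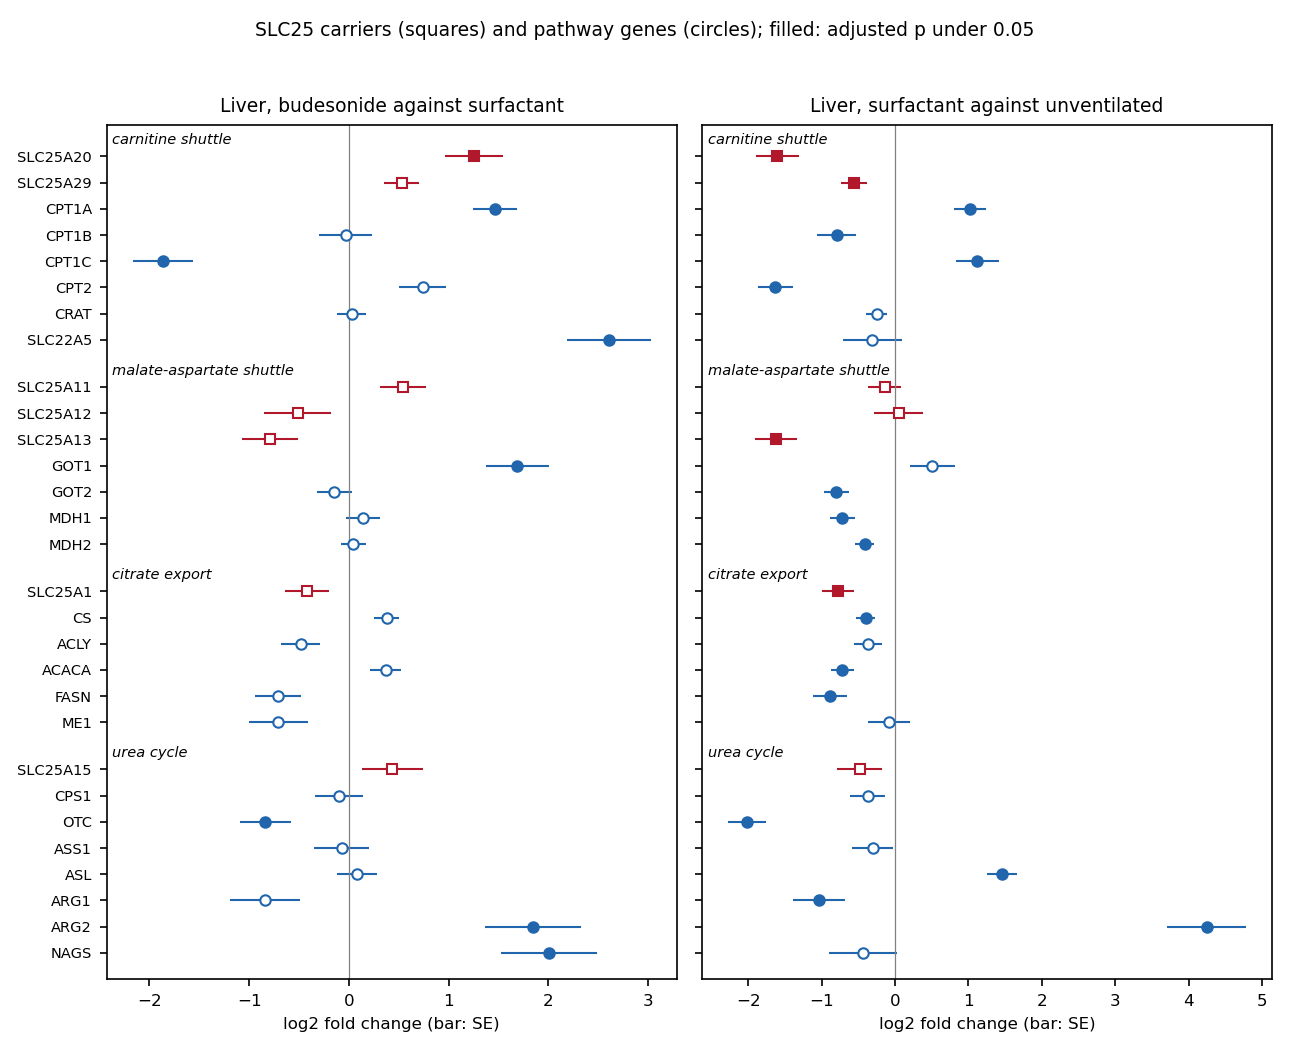
log2 change in liver (x axis) with its standard error for the SLC25 carriers (squares) and genes of the pathways they serve (circles), filled where the adjusted p was under 0.05, for budesonide against surfactant and surfactant against unventilated livers. SLC25A20 lies at 1.25 in the first and -1.60 in the second comparison.

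In the malate-aspartate shuttle, which SLC25A11, SLC25A12 and SLC25A13 complete, 1 of 4 enzymes was higher in budesonide than in surfactant livers (11.9% of all genes called) and 3 of 4 were lower in surfactant than in unventilated livers (41.1% of all genes called). GOT1, the cytosolic aspartate aminotransferase, averaged 493 ± 74 CPM in budesonide livers, 153 ± 52 CPM in surfactant livers and 108 ± 53 CPM in unventilated livers (SD, n = 4 each), a rise of 1.69 over surfactant livers (edgeR adjusted p = 0.0069). The mitochondrial form GOT2 fell by 0.80 in surfactant against unventilated livers (adjusted p = 0.0035), as did MDH1, the cytosolic malate dehydrogenase, by 0.72 (0.0053), and MDH2, the mitochondrial one, by 0.41 (0.019, and 0.051 without unventilated animal 059). Of 5 citrate export and lipogenic genes served by SLC25A1, 0 were called in budesonide against surfactant livers and 3 fell in surfactant against unventilated livers, namely ACACA, the cytosolic acetyl-CoA carboxylase, by 0.72 (adjusted p = 0.0036), FASN, fatty acid synthase, by 0.89 (0.0082) and CS, citrate synthase, by 0.40 (0.023, and 0.073 without unventilated animal 058).

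Of 7 urea cycle genes, 2 were higher and 1 was lower in budesonide than in surfactant livers, where 11.9% of all genes were called. NAGS, which makes the activator of the cycle, rose by 2.00 (edgeR adjusted p = 0.020, and 0.058 without budesonide animal 048). ARG2, the mitochondrial arginase, rose by 1.85 (adjusted p = 0.028), a call that needed each of budesonide animals 031 and 050 and surfactant animals 032 and 049 (0.053 to 0.078 without it). OTC, which uses the ornithine that SLC25A15 brings in, fell by 0.84 (adjusted p = 0.049), lost without surfactant animal 007 or 049 or budesonide animal 031, 048 or 054 (0.069 to 0.10). OTC averaged 26.0 ± 9.3 CPM in budesonide livers, 46.5 ± 8.5 CPM in surfactant livers and 188 ± 34 CPM in unventilated livers (SD, n = 4 each), and it fell by 2.02 in surfactant against unventilated livers (adjusted p = 0.00013). There 2 urea cycle genes were higher and 2 lower, where 41.1% of all genes were called, with ARG2 higher by 4.25 (adjusted p = 0.00013) and ASL, argininosuccinate lyase, higher by 1.46 (adjusted p = 0.00021). Of 10 iron and haem genes, UROD was the only one called in budesonide against surfactant livers (0.90, adjusted p = 0.046), and 4 fell in surfactant against unventilated livers, a share close to that of all genes called, among them ALAS1, the first enzyme of haem synthesis, by 1.35 (adjusted p = 0.012). The call of UROD was lost without any library of these groups except budesonide animal 050 (0.052 to 0.14).

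In PVWM, comparisons with the unventilated lambs gave few calls. Of 5 microglia markers there, 3 were lower in budesonide than in surfactant lambs, where 0.387% of all genes were lower. Against unventilated lambs, 3 were lower and 1 was higher in budesonide lambs, where 8.06% of all genes were called. The summed level of the 5 was 64.5 to 87.7 CPM in budesonide lambs, 137 to 191 CPM in surfactant lambs and 174 to 193 CPM in unventilated lambs. Summed endothelial markers were 145 to 181, 182 to 352 and 196 to 225 CPM in the same order of groups. Other marker sums separated all ventilated from all unventilated lambs. The 5 astrocyte markers summed to 4571 to 5719 CPM in budesonide, 5076 to 5864 CPM in surfactant and 3611 to 4525 CPM in unventilated lambs. The 7 neutrophil and myeloid markers summed to 32.9 to 46.3, 20.1 to 52.4 and 10.7 to 14.2 CPM in the same order. The single astrocyte markers did not move together. Against unventilated lambs, 1 of 5 was higher in surfactant lambs (median log2 -0.08), where 2.05% of all genes were called. In budesonide lambs 1 was higher and 1 lower, where 8.06% were called. Of 6 neutrophil and myeloid markers tested, 1 was higher in each comparison. The part of these markers in the PVWM changes of the carriers was not tested. In surfactant against unventilated PVWM, 0 of 42 carriers were called by edgeR, where 2.05% of all genes were, 6 had an unadjusted p under 0.05, and DESeq2 called 2, SLC25A25 lower and SLC25A33 higher. Their ranges did not overlap for 6 carriers, against 8.40% of all genes. In budesonide against unventilated PVWM, SLC25A33 was higher and SLC25A1, SLC25A25 and SLC25A48 were lower, 4 of 42 against 8.06% of all genes (4.35% higher, 3.71% lower), with 5 carriers without overlap against 17.2%. With gestational age in the fit 0 of the 4 calls were kept, and with sex in the fit 1 was, SLC25A25. Budesonide animal 054 lay beyond both 127-day unventilated lambs for 4 of 4, carriers chosen by calls that used the same lambs, which is no test of age. Between budesonide and surfactant lambs the log2 differences spanned -0.59 to 0.35, the lowest for SLC25A35 (adjusted p = 0.23), and 4 carriers had ranges without overlap, against 7.60% of all genes.

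Tests of the difference between tissues placed the liver and PVWM changes side by side. The budesonide change differed between tissues for 3 of 44 carriers, SLC25A4, SLC25A30 and SLC25A20, all larger in liver, against 3.41% of all 20010 genes tested (1.41% higher in liver, 2.00% lower). The difference between surfactant and unventilated lambs itself differed between tissues for 14 carriers, against 25.8% of all genes (14.6% higher in liver, 11.2% lower). It was higher in liver for SLC25A3 (0.54), SLC25A5 (1.12), SLC25A6 (0.63), SLC25A28 (0.57), SLC25A36 (0.91) and SLC25A51 (0.72). It was lower in liver for 8, of which the 6 largest were SLC25A10 (-1.81), SLC25A22 (-1.77), SLC25A27 (-1.62), SLC25A20 (-1.48), SLC25A13 (-1.47) and SLC25A33 (-1.26). With the animal as a block 9 of the 14 kept their call, and SLC25A3, SLC25A6, SLC25A14, SLC25A28 and SLC25A36 lost it (edgeR adjusted p = 0.054 to 0.095). The differences for SLC25A3 and SLC25A28 were also lost without a library, that of SLC25A3 without surfactant liver 051, unventilated liver 058, surfactant PVWM 049 or unventilated PVWM 058 (0.0504 to 0.068) and that of SLC25A28 without any of 12 of the 16 libraries (0.052 to 0.11).

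**Figure D5:**
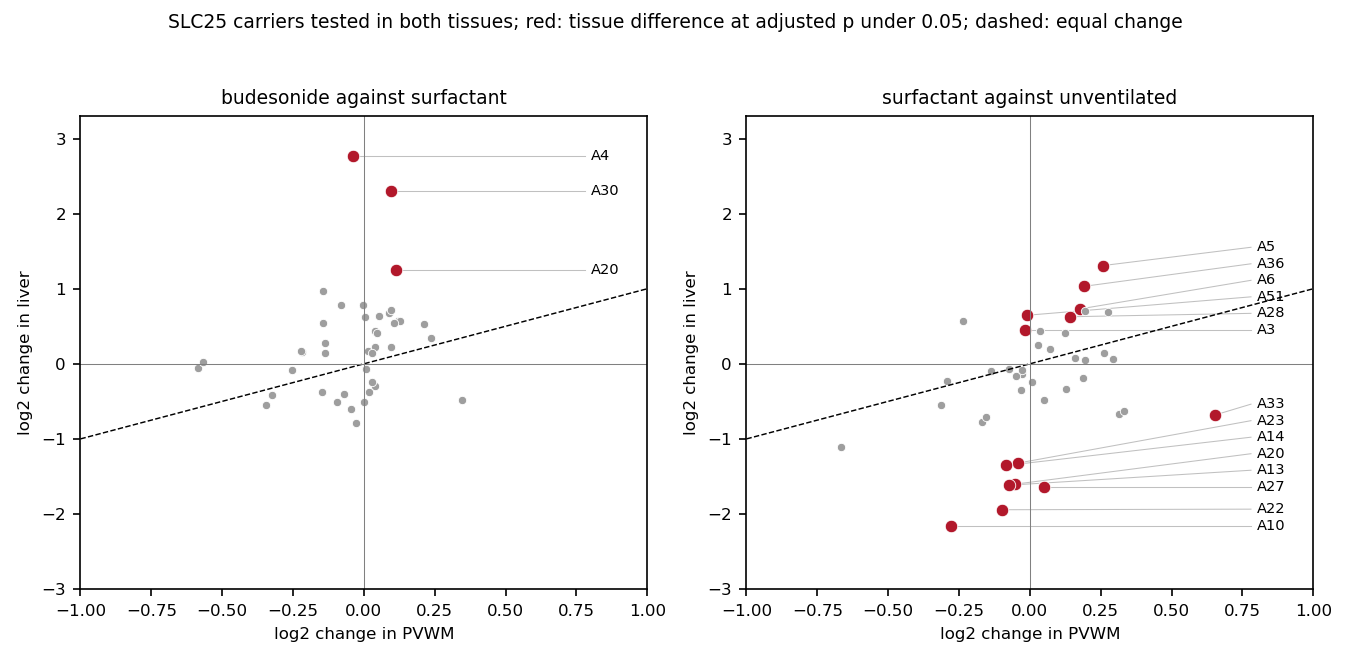
log2 change in PVWM (x axis) against log2 change in liver (y axis) for the carriers tested in both tissues, one point per gene, for budesonide against surfactant and surfactant against unventilated lambs, with the difference between tissues called at adjusted p under 0.05 in red. In the first panel SLC25A4 and SLC25A30 lie at 2.77 and 2.30 in liver and at -0.04 and 0.10 in PVWM.

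The levels of most of the family differed between the tissues in lambs that had not been ventilated. In these lambs 36 of 44 carriers differed between liver and PVWM, 19 higher in liver and 17 lower, against 77.9% of all genes (36.1% higher, 41.7% lower). All 8 called cofactor and iron carriers were higher in liver, whereas 7 of the 8 called nucleotide and phosphate carriers were lower there. The largest excesses in liver were those of SLC25A45 (189 to 355 counts in unventilated liver and 0 to 2 in unventilated PVWM), SLC25A47 (log2 4.45), SLC25A13 (4.24, 18.9-fold), SLC25A37 (4.10, 17.1-fold), SLC25A10 (2.19) and SLC25A15 (1.97). The largest deficits were those of SLC25A23 (16.4-fold lower in liver), SLC25A27 (13.5-fold), SLC25A14 (7.50-fold), SLC25A4 (5.93-fold), SLC25A12 (3.92-fold) and SLC25A5 (log2 -1.77). Of the aspartate/glutamate carriers, SLC25A13 was thus the higher in liver and SLC25A12 the lower. The tissues differ in RNA composition, so each level is relative to all mRNA of its tissue. The sizes above depend on scaling the 24 libraries together, and CPM scaled within each tissue give other ratios. On that scale SLC25A4 averaged 20.2 CPM in unventilated liver and 207 CPM in unventilated PVWM, and SLC25A13 138 and 12.6 CPM.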

How the data were processed

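Poly(A) RNA was sequenced as paired ends from liver and PVWM, per the labels' protocols. The deposited values are raw counts per gene and sample, and per the submitters' processing notes the tools included Bowtie2, featureCounts and edgeR, with versions, genome build and strand setting not given in the sources used here. Without a build, no coordinates are given. Groups came from the labels, and 508 rows were named through the RefSeq gene table.

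Here, each tissue was fitted separately with edgeR 4.0.16 (limma 3.58.1, R 4.3.3): low-count genes were removed with filterByExpr, leaving 16824 genes in liver and 18616 in PVWM, libraries were scaled by TMM, and the 3 groups entered 1 robust quasi-likelihood fit. P-values were Benjamini-Hochberg adjusted over all genes tested, with 0.05 as threshold. Standard errors were obtained by dividing each log2 change by the root of its F statistic. Differences between tissues, and liver against PVWM, used 1 fit of 20010 genes over the 24 libraries. CPM are TMM-scaled within each tissue. The fits were tested on simulated counts: for budesonide against surfactant livers (16824 genes), 75.8% of genes changed 4-fold and 19.4% of those changed 2-fold were recovered. That simulation called 67 genes, against 1994 in the data, so its adjusted threshold was stricter.

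Alternatives were DESeq2 1.42.0, median-ratio size factors, no count filter, only the 2 groups compared, sex or gestational age as covariate, leaving out each library, and the animal as block. Sex was not given for 1 library per tissue. The liver library, of animal 060, took the sex given for that animal's PVWM library. The PVWM library, of animal 061, was dropped from the fit with sex. The pairing comes from the labels, since 11 animals gave both tissues, whose residuals correlated at 0.079 to 0.198. Within groups no 2 libraries of 36 pairs were identical or agreed within counting noise. Each lamb is 1 replicate. The carriers, pathway lists and markers were chosen with earlier results of these data known. Genes named with values were called carriers (up to 12 each way, and 6 each way between tissues), up to 3 uncalled ones with the smallest p, 16 carriers of general interest in the main comparisons, and up to 3 called genes per pathway list.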

Additional observations from a re-analysis of the deposited data

Results flagged for a closer look

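Within a group of 4 animals, 12 of 258 carrier and group combinations held an animal far from the other 3 by Dixon's criterion, close to the 1 in 20 that chance gives. In liver these were SLC25A42 in budesonide animal 031 (8.73 CPM), SLC25A43 in budesonide animal 054 (15.6 CPM) and SLC25A41 in unventilated animal 059 (0.470 CPM). In PVWM they were SLC25A20 (12.3 CPM) and SLC25A26 (8.69 CPM) in budesonide animal 048 and SLC25A37 in budesonide animal 050 (3.18 CPM). Among surfactant lambs they were SLC25A39 in animal 032 (27.6 CPM), SLC25A41 in animal 049 (3.10 CPM) and SLC25A42 in animal 007 (10.7 CPM). Among unventilated lambs they were SLC25A27 (122 CPM) and SLC25A36 (104 CPM) in animal 057 and SLC25A39 in animal 058 (31.8 CPM).

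Carriers whose change differed between liver and PVWM, tested directly in edgeR, were singled out too. For budesonide against surfactant lambs the liver change minus the PVWM change was 2.81 for SLC25A4, 2.22 for SLC25A30 and 1.15 for SLC25A20. For surfactant against unventilated lambs it was 1.12 for SLC25A5, 0.91 for SLC25A36, 0.72 for SLC25A51, 0.63 for SLC25A6, 0.57 for SLC25A28 and 0.54 for SLC25A3. It was -1.81 for SLC25A10, -1.77 for SLC25A22, -1.62 for SLC25A27, -1.48 for SLC25A20, -1.47 for SLC25A13 and -1.26 for SLC25A33. No explanation was tested for these values.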

How the results depend on the processing

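No carrier changed direction with its call under any alternative run. In budesonide against surfactant livers, only SLC25A4 and SLC25A30 kept their calls under every alternative. With only the 2 groups compared in the fit, 2 carriers were called in place of 7. With gestational age in the fit, calls against unventilated lambs numbered 1 in place of 20 in surfactant livers, 10 in place of 18 in budesonide livers and 0 in place of 4 in budesonide PVWM. With sex in the fit the last was 1. DESeq2 called 2 carriers in place of 0 in surfactant against unventilated PVWM. With the animal as a block, the paired fit called 9 carriers in place of 14 for the tissue difference in the surfactant against unventilated change, 2 in place of 3 for that in the budesonide change, and 35 in place of 36 between unventilated liver and PVWM.

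Leaving out 1 library at a time gave 2 to 11 carriers in budesonide against surfactant livers, 15 to 24 in surfactant against unventilated livers and 15 to 20 in budesonide against unventilated livers. In PVWM it gave 0 in every case, 0 to 1 and 3 to 4 for the same comparisons. It gave 2 to 6 and 12 to 20 for the tissue differences in the budesonide and the surfactant changes, and 35 to 37 between unventilated tissues. Surfactant liver 007 stood nearer the unventilated livers for several carriers, and without it SLC25A35, SLC25A38, SLC25A42 and SLC25A48 were also called in surfactant against unventilated livers. The causes of these shifts were not tested. With 4 lambs a group and liver spread above that of PVWM (biological coefficient of variation 0.304 and 0.197), changes of 2-fold or less could be missed in liver, although some were called. On simulated counts for budesonide against surfactant livers, 19.4% of 2-fold and 0% of 1.5-fold changes were recovered. For PVWM the shares were 55.2% and 31.3%. The simulation called 67 genes in liver and 118 in PVWM, against 1994 and 182 in the data. Its adjusted threshold was therefore far stricter in liver than that of the data. The recovered shares of liver do not carry over to the data and cannot be set against those of PVWM.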

Other observations

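Mitochondrial carriers outside the SLC25 family and regulators of mitochondrial biogenesis were also examined in liver. Of 16 tested other carriers, 1 was higher and 2 were lower in budesonide than in surfactant livers, where 11.9% of all genes were called. In surfactant against unventilated livers 4 were higher and 8 lower, where 41.1% of all genes were called. The pyruvate carrier is made of MPC1 and MPC2, and its subunits went opposite ways. MPC1 averaged 287 ± 59 CPM in budesonide livers, 173 ± 56 CPM in surfactant livers and 68.1 ± 2.0 CPM in unventilated livers, while MPC2 averaged 18.5 ± 2.1, 22.1 ± 4.7 and 51.7 ± 6.4 CPM in the same order (SD, n = 4 each). In surfactant against unventilated livers MPC1 had a log2 change of 1.34 and MPC2 of -1.22 (edgeR, adjusted p = 0.00054 and 0.00026), and both calls held with gestational age in the fit (0.011 and 0.032).

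Of 9 biogenesis genes, 3 were higher and 1 was lower in surfactant than in unventilated livers, a share close to the 41.1% of all genes called. PPARGC1A (PGC-1 alpha), a coactivator that drives mitochondrial biogenesis, averaged 81.2 ± 15 CPM in budesonide livers, 125 ± 59 CPM in surfactant livers and 33.0 ± 8.2 CPM in unventilated livers. It rose by 1.92 in surfactant over unventilated livers (edgeR adjusted p = 0.00053, and 0.061 with gestational age in the fit). Its relative PPRC1 rose by 1.63 and the mitochondrial transcription factor TFB2M by 1.78 (adjusted p = 8.0e-05 and 0.00055). In budesonide against surfactant livers 1 of the 9 was called, where 11.9% of all genes were, the nuclear receptor ESRRA (0.57, adjusted p = 0.043), and its call was lost without any of 6 libraries (0.052 to 0.12), namely surfactant animals 007, 032 and 049 and budesonide animals 031, 050 and 054.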
